A study of Mus musculus and synthetic RNA with 74 samples.

Results

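The 10 transcripts described here come from genes known for their roles in the mouse oocyte, namely Nlrp5, Ooep, Tle6, Khdc3, Padi6, Nlrp4f and Zbed3 of the subcortical maternal complex, the zona pellucida gene Zp3, and the secreted oocyte factors Gdf9 and Bmp15. They were chosen by name, and all 10 had a row in both gene tables, which list 20330 genes at E2.5 and 21199 at E3.5, or 21890 in all. The data are Smart-seq2 transcriptomes of single embryos, in which polyadenylated RNA of 1 embryo is amplified without keeping the strand, at E2.5 (morula, 31 embryos) and E3.5 (blastocyst, 39 embryos). Parents were Mettl16+/- mice of line 2112, which carries a triple-stop cassette in exon 3 of Mettl16, the gene of an m6A methyltransferase. The line was made in B6D2F1/J zygotes and bred with C57BL/6JRj mice. Embryos were taken from superovulated females of this cross, so WT, HET and KO embryos alike had heterozygous mothers. At E2.5 there were 5 WT, 14 HET and 12 KO embryos, and at E3.5 there were 18 WT, 9 HET and 12 KO embryos.

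The gene tables give 1 mean per gene and stage, taken over all embryos of the stage and all genotypes, and no value for a single embryo. No SD, interval or test can therefore be set beside a value, and a few embryos with much of a transcript cannot be told apart from a low level in all of them. KO embryos were 38.7% of those at E2.5 and 30.8% of those at E3.5. The differences between genotypes in the tables are the authors' own comparisons, and whether these transcripts persist longer in KO embryos was not analysed here. The means sum to 23557112 normalized counts at E2.5 and to 27145016 at E3.5. A gene value below is given as its share of that sum, scaled to 1000000 counts and written as CPM. Both tables were normalized separately, so every difference between the stages is a description of 2 pooled values.

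In a growing oocyte, transcription stores messenger RNAs that serve the egg and the early embryo, and most of them are degraded during meiotic maturation and around activation of the embryo's own genome. The subcortical maternal complex is a protein assembly below the plasma membrane of the egg and of the outer cells of the cleavage embryo, needed for the first divisions. Its proteins outlast their RNAs, so RNA levels do not report the amount of the complex. A transcript in a morula can be a remnant of the oocyte's store or a product of the embryo's genome, and poly(A) selection records only RNA that still has a tail.

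The regions before the start sites of these genes are shown because the transcripts moved in opposite directions between the stages. RefSeq promoters of GRCm38.p6, from 250 bases before to 50 bases after a start, were matched for 9 of the 10 genes, giving 13 promoters. Gdf9 was not matched. Those of Ooep and Khdc3, both higher at E3.5, and of Zp3 and Bmp15, both lower, follow 5′ to 3′ on the strand of the gene. Capitals mark matches to the E-box CANNTG, the element bound by the oocyte factor FIGLA and by many other helix-loop-helix proteins, and to the NOBOX element TAATTG or its reverse complement CAATTA. Matches that overlap run together. The positions are chr9:78378539-78378838 on the minus strand for Ooep, chr9:73102148-73102447 on the plus strand for Khdc3, chr5:135979855-135980154 on the plus strand for Zp3 and chrX:6320675-6320974 on the minus strand for Bmp15.
Ooep: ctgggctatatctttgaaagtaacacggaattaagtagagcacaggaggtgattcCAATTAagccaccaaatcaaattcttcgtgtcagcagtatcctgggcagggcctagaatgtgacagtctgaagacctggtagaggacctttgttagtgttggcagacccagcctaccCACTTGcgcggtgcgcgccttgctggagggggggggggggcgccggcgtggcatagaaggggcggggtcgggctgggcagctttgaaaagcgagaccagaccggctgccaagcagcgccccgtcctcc
Khdc3: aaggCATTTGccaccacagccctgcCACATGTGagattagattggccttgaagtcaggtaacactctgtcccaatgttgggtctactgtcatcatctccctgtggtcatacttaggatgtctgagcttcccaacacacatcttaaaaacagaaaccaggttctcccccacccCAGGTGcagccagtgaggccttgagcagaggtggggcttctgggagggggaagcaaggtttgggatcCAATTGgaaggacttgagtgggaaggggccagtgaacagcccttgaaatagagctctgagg
Zp3: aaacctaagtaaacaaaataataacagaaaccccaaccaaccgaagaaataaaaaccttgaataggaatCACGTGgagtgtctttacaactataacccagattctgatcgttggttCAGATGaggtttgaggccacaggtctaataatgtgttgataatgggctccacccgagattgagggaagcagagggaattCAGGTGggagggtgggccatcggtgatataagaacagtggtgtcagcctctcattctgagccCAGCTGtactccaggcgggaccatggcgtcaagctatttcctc
Bmp15: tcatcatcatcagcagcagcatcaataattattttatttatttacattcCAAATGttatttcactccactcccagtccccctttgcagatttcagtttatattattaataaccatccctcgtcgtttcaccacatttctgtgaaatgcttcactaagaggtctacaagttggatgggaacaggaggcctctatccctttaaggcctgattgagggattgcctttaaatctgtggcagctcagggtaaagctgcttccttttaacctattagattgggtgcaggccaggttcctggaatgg

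All 13 promoters held at least 1 E-box, as did 72.3% of the 32851 promoters in the RefSeq table. The NOBOX element was in 2 of the 13, those of Ooep and Padi6, and in 8% of all promoters. A TATA box, TATAAA on either strand, was in 3 of the 13 and in 13.6% of all. The CpG content differed widely, from 0 CpG in the promoter of Khdc3 to 18 in 1 of the 2 promoters of Tle6, beside a median of 7 in all promoters. Of the transcripts higher at E3.5, Ooep had 15 CpG, Nlrp4f 2 and Khdc3 0. A link between CpG content and stage was not tested. These counts describe letters in these windows only.

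Of the 10 transcripts, 7 were lower at E3.5 than at E2.5 and 3 were higher. At least 2-fold lower were 6, namely Nlrp5, Padi6, Zbed3, Zp3, Gdf9 and Bmp15, all of them also at least 4-fold lower, and Tle6 was lower by less than 2-fold. Tle6 passed 2-fold when the stages were scaled by the median of the gene ratios (log2 -1.13) or by 10 household genes (-1.42), which made the count 7. At least 2-fold higher were Ooep, Khdc3 and Nlrp4f. Of the 12522 genes with at least 1 CPM at either stage, 18.9% were at least 2-fold lower, 9.05% at least 4-fold lower and 35.1% at least 2-fold higher at E3.5. All 10 transcripts passed this filter at E2.5, and Nlrp5, Gdf9 and Bmp15 were below it at E3.5. With no minimum level, 24% of 21890 genes were at least 2-fold lower and 37.3% at least 2-fold higher. The median log2 difference of the 10 transcripts was -2.83, beside 0.41 for the 12522 genes, and was -1.62 with 1 CPM added to both stages. A lower share can come with loss of the RNA or with more RNA of other genes, which cannot be told apart in these tables. For Ooep, Khdc3 and Nlrp4f the data went against a name that stands for RNAs of the oocyte only.

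**Figure D1:**
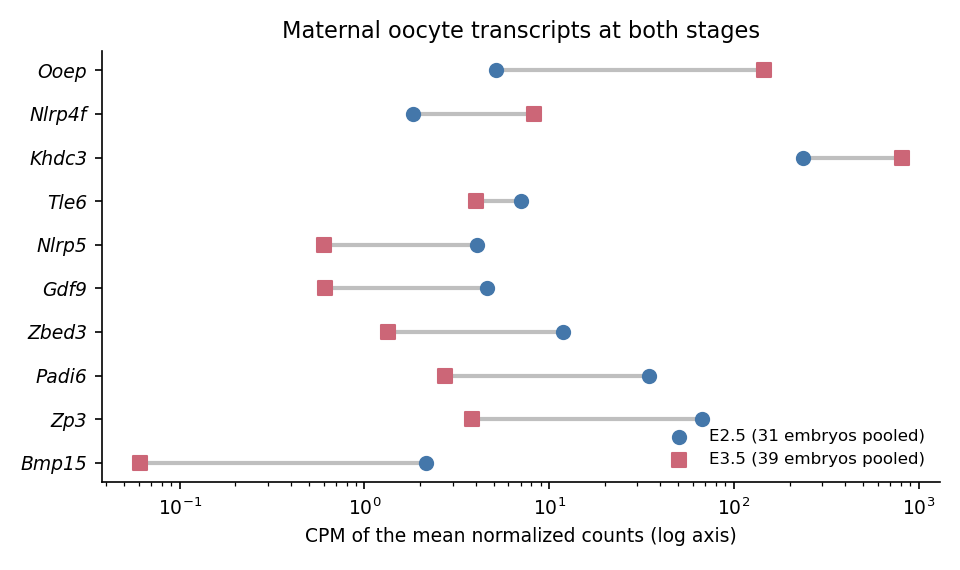
CPM of the mean normalized counts (horizontal log axis) for the 10 transcripts, with circles for E2.5 and squares for E3.5, each 1 pooled mean and so without an error bar. Bmp15 has the largest difference downwards, from 2.15 to 0.0608 CPM, and Ooep the largest upwards, from 5.18 to 146 CPM.

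Of the 7 subcortical maternal complex genes among the 10, 3 were at least 2-fold lower and 3 at least 2-fold higher. The list of the complex holds 1 further gene, Nlrp2, which had 0.42 CPM at E2.5 and 0.0814 at E3.5, so that 4 of its 8 genes were lower and 3 higher, beside 24% and 37.3% of all genes with no minimum level. Padi6, a peptidylarginine deiminase family member needed for the cytoplasmic lattices of the egg, had 34.7 CPM at E2.5 and 2.74 at E3.5, a 12.6-fold lower share. Zbed3, a zinc finger protein of the complex, had 11.9 and 1.34 CPM and was 8.91-fold lower. Nlrp5, also called Mater, the NLR family protein at the core of the complex, had 4.09 and 0.604 CPM and was 6.78-fold lower. Nlrp5 has a pseudogene, Nlrp5-ps, listed at 5.03 and 1.03 CPM, and reads shared by both could have been split between them. Tle6, a Groucho-related protein that binds the other core proteins, had 7.03 and 4 CPM, so that 56.9% of its E2.5 share was left.

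Ooep, Khdc3 and Nlrp4f were higher in the blastocyst pool. Ooep, which encodes the KH domain protein FLOPED of the core, had a mean of 122 normalized counts at E2.5 and 3959 at E3.5. As a share this was 5.18 and 146 CPM, 28.1-fold higher, and 90.5% of the 21890 genes, with no minimum level, had a lower ratio. Khdc3, also called Filia, a KH domain protein tied to genome stability in cleavage embryos and embryonic stem cells, had 5572 and 21973 normalized counts, or 237 and 809 CPM, and was 3.42-fold higher. Nlrp4f, an NLR protein that associates with the complex, had 1.82 and 8.23 CPM and was 4.52-fold higher. Per kb of transcript, Ooep and Tle6, whose proteins belong to the same core, had levels of 4.29 and 3.49 CPM in the morula pool and of 121 and 1.99 CPM in the blastocyst pool.

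The genes of the egg coat and of the signals to the follicle were all lower. Zp3, which encodes a zona pellucida glycoprotein, had 67.4 CPM at E2.5 and 3.84 at E3.5, a 17.6-fold lower share. Gdf9 and Bmp15 encode TGF-beta family ligands that the oocyte sends to the cumulus cells. Gdf9 had 4.59 and 0.612 CPM and was 7.5-fold lower. Bmp15 had 2.15 and 0.0608 CPM and was 35.4-fold lower, with a mean of 50.7 normalized counts in the E2.5 table and 1.65 in the E3.5 table. With no minimum level, 4.72% of the 21890 genes had a lower ratio than Bmp15 and 6.19% a lower one than Zp3.

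**Figure D2:**
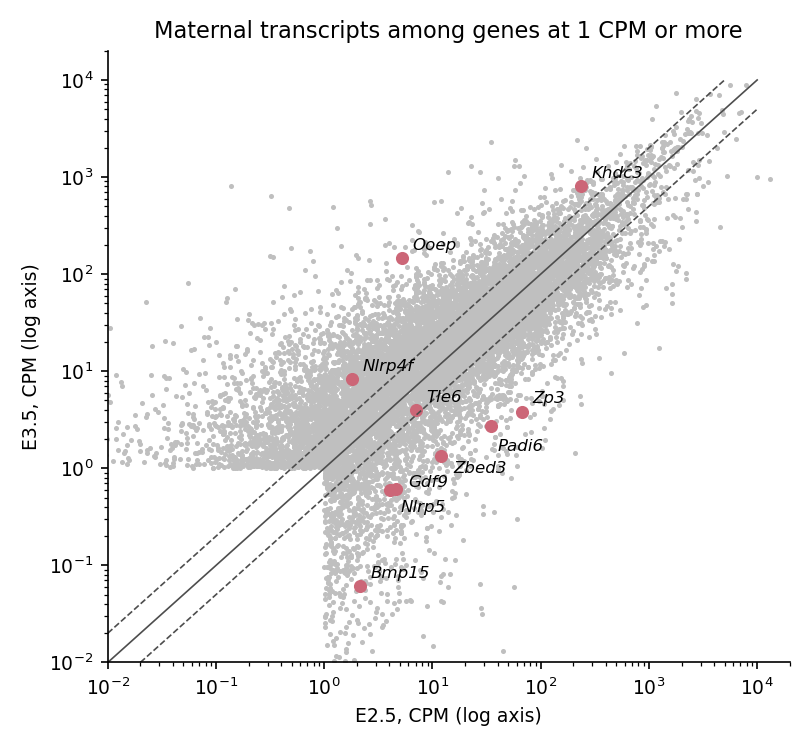
CPM at E2.5 (horizontal log axis) and at E3.5 (vertical log axis) of genes with at least 1 CPM at either stage (grey points, with a value above 0 at both) and of the 10 transcripts (coloured points with names). The solid line marks equal shares and the dashed lines 2-fold differences, and Ooep, Khdc3 and Nlrp4f lie above the upper dashed line while 6 transcripts lie below the lower one.

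Divided by the length of the longest RefSeq transcript, the order at E2.5 was Khdc3 with 140 CPM per kb, Zp3 with 51.2, Padi6 with 14.9, Zbed3 with 5.16, Ooep with 4.29, Tle6 with 3.49, Gdf9 with 2.54, Nlrp5 with 1.16, Bmp15 with 0.703 and Nlrp4f with 0.516. At E3.5 the first was again Khdc3, with 480 CPM per kb, followed by Ooep with 121, and each of the others had 2.91 or less. Whether neighbours in these orders differ cannot be said without values per embryo.

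Khdc3 made up 63% of the summed share of the 10 transcripts at E2.5 and 82.9% at E3.5. The sum was 375 CPM at E2.5 and 977 at E3.5. For the 7 transcripts that were lower, it was 132 CPM at E2.5 and 13.2 at E3.5. The sum of all 10 was thus higher at E3.5 although 7 of its 10 parts were lower.

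The same difference was read in single exons and introns, which the authors counted separately. The longest listed transcript of each gene was used, numbered from its 5′ end. For the 7 lower transcripts every exon had a lower share at E3.5, 16 of 16 in Nlrp5 and Padi6, 14 of 14 in Tle6, 8 of 8 in Zp3 and 2 of 2 in Gdf9, Bmp15 and Zbed3. For the 3 higher transcripts every exon had a higher share, 3 of 3 in Ooep and Khdc3 and 10 of 10 in Nlrp4f. Summed over exons, the log2 differences ran from -4.81 for Bmp15 to 5.18 for Ooep. A read that spans a junction can be counted in both exons, and the exon sum of Zp3 at E2.5 was 2.27 times its gene value.

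Padi6 (chr4:140727355-140742643, minus strand, mm10) did not have even exon values. In the E2.5 pool its exons 1 to 8 had means of 12.5 to 25.2 normalized counts, and its exons 9 to 16 had 94.3 to 311. The step lay between exon 8, with 25.2, and exon 9, with 94.3, which are of similar length, 104 and 112 bases. The introns on both sides of exon 9 had 22.4 and 21.5 normalized counts, and each of the other 13 introns had 2.9 or less. At E3.5 the same step went from 1.26 in exon 8 to 4.18 in exon 9. Values in Zp3 (chr5:135980105-135988624, plus strand) were even at E2.5, between 409 in exon 8 and 533 in exon 4, and ran from 13 in exon 2 to 29.3 in exon 7 at E3.5.

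Nlrp4f (chr13:65177111-65205716, minus strand) differed along its length too. Exon 3, of 1570 bases, had 19.9 normalized counts at E2.5 and 27.6 at E3.5, a 1.65-fold higher share, whereas exon 9, of 174 bases, had 7.55 and 62.5, a 9.83-fold higher share. Nlrp4f has several close paralogs, and reads common to them could have been assigned to any of these genes. The libraries of the stages also differed in coverage along genes. Among genes with at least 8 exons, the median log2 ratio of the later to the earlier exons, per kb, was -0.34 at E2.5 (6144 genes) and 0.79 at E3.5 (6379 genes). For Padi6 this ratio was 3.10 at E2.5 and 4.31 at E3.5, above that of 96.8% and 96% of those genes. For Nlrp4f it was 0.93 at E2.5, above that of 85.4% of genes, and higher at E3.5, above that of 84.7%. The part of coverage in the exon differences was not tested.

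**Figure D3:**
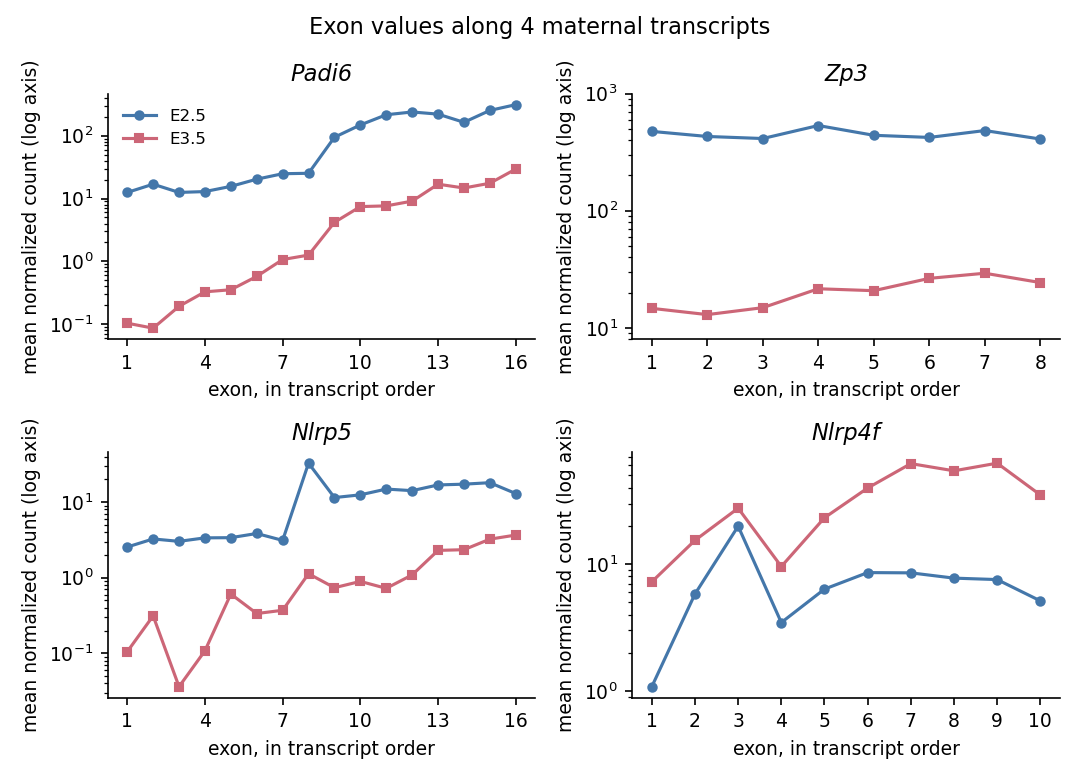
Mean normalized count of each exon (vertical log axis) in transcript order (horizontal axis) for Padi6, Zp3, Nlrp5 and Nlrp4f at E2.5 (circles) and E3.5 (squares), as pooled means without error bars. In Padi6 both lines step up between exon 8 and exon 9, Zp3 is even at E2.5, and in Nlrp4f the lines come closest at exon 3.

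Reads in introns can come from unspliced RNA, from DNA or from another exon within the intron, and the library does not keep the strand. Intron 1 of Zbed3, which holds Snora47, and intron 9 of Nlrp5 overlap a listed exon. Summed over introns, Ooep had 1.4 normalized counts at E2.5 and 23.3 at E3.5, Khdc3 had 38.9 and 86.7, and Nlrp4f had 2.05 and 22.5. In Nlrp4f, 4 of 9 introns were above 0 at E2.5 and 9 of 9 at E3.5. Its introns 4, 6 and 8 had only 0.308, 0.698 and 0.107 normalized counts at E3.5. The E3.5 pool held 39 embryos and the E2.5 pool 31. The share of all introns above 0 was not counted, so this is no result about Nlrp4f. As log2 differences, the intron sums of Ooep, Khdc3 and Nlrp4f were 4.30, 1.40 and 3.70, higher at E3.5 as their exons were. Intron values were divided by the summed exon values of the stage. The median intron density over genes also went from 0.857% at E2.5 to 1.65% at E3.5. The part of this in the 3 differences was not tested. Zp3 had 61.1 and 8.89 in its introns and Padi6 54.6 and 11.2, and the single intron of Bmp15 was listed at 0 at both stages. Gdf9 (chr11:53433286-53437903, plus strand) went against its exons, since its intron had 2.37 at E2.5 and 9.35 at E3.5 while exon 2 had 90 and 18.8. No exon of another listed gene overlaps that intron.

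Per kb, the introns of the 10 genes had a median of 0.712% of the exon value at E2.5 and 1.23% at E3.5. The medians of genes with at least 1 CPM in exon values at the stage were 0.857% (10105 genes) and 1.65% (10727 genes). The median over genes was thus higher at E3.5 too. This filter was not applied to the 10 genes, of which Nlrp5, Gdf9 and Bmp15 were below 1 CPM at E3.5. For Gdf9 the percentage was 1.35% at E2.5 and 31.4% at E3.5. For Ooep it was 1.93% and 1.05%, for Khdc3 2.6% and 1.91%, and for Nlrp4f 0.389% and 0.938%.

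Other oocyte genes gave the setting. Zp2, a second glycoprotein of the egg coat, had 2.28 CPM at E2.5 and 0.357 at E3.5, and Zp1 was below 1 CPM at both stages, with 0.975 and 0.145. In the lists of oocyte genes a minimum level would keep genes by the stage where they are high, so all listed genes are counted here. Of 13 oocyte growth factors and regulators, Gdf9 and Bmp15 included, 8 were at least 2-fold lower, 1 was higher and 4 lay between. Among all 21890 genes with no minimum level, 24% were at least 2-fold lower and 37.3% at least 2-fold higher. All 8 lower genes of the list were below 1 CPM at E3.5, and 3 of them were below it at E2.5 too. Oosp1, a secreted oocyte protein, went from 12.6 to 0.383 CPM, while the RNA-binding proteins Ybx2, with 3.36 and 5.34, and Cpeb1, with 2.61 and 2.05, stayed within 2-fold. Of 15 maternal effect genes, 9 were at least 2-fold lower, 1 was higher and 5 lay between, beside the same 24% and 37.3%. All 9 lower genes were below 1 CPM at E3.5, and 2 of them were below it at E2.5 too. The 4 most abundant, Dppa3 with 4835 and 4495 CPM, Trim28 with 530 and 610, Dnmt1 with 27.8 and 41.8 and Zfp57 with 12.5 and 23.4, were all within 2-fold. Dppa3, also called Stella, protects maternal DNA methylation, and Trim28 and Zfp57 act at imprinted loci.

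The oocyte NLR family held genes with differences in both directions. Of its 12 listed genes, Nlrp5 and Nlrp4f included, 8 were at least 2-fold lower, 3 at least 2-fold higher and 1 between. Of all genes with no minimum level, 24% were at least 2-fold lower and 37.3% at least 2-fold higher. The 8 lower genes were all below 1 CPM at E3.5, and 4 of them were below it at E2.5 too. Nlrp14 had 4.92 CPM at E2.5 and 0.356 at E3.5, and Nlrp4a had 2.12 and 0.303. Nlrp4c, a paralog of Nlrp4f, had 3.98 and 87.5 CPM, a difference of 4.46 on the log2 scale.

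Genes of messenger RNA clearance were taken as a further list, with the CCR4-NOT deadenylase, decapping enzymes, terminal uridylyltransferases and the m6A reader Ythdf2. All 21 passed the filter, and 4 were at least 2-fold lower, 7 at least 2-fold higher and 10 between, with a median log2 difference of 0.57. These counts lay near the 18.9% lower and 35.1% higher among all genes above the filter, whose median was 0.41, and are no result about this list. Ythdf2, which brings m6A-marked RNA to deadenylation, had 445 CPM at E2.5 and 138 at E3.5. Cnot8, a catalytic deadenylase subunit, had 282 and 106, while the scaffold Cnot1, with 260 and 205, and Cnot2, with 121 and 120, stayed within 2-fold.

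**Figure D4:**
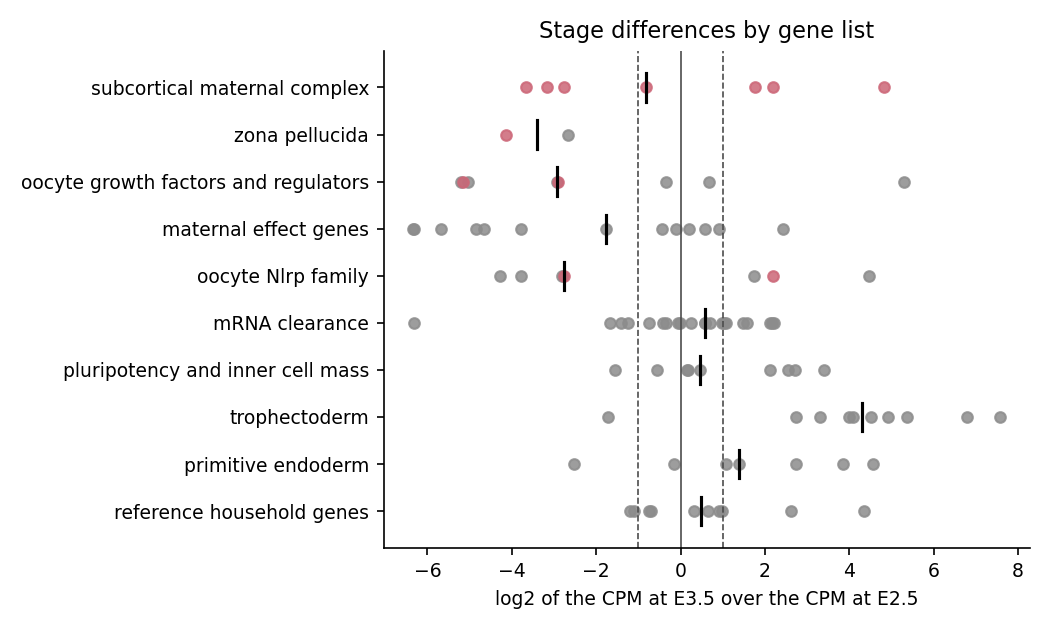
Log2 of the E3.5 over the E2.5 share (horizontal axis) for genes of 10 lists with at least 1 CPM at either stage. The 10 transcripts described here are coloured, the other genes are grey and a black bar marks each list's median. Genes that are high at 1 stage only were kept by that stage. The subcortical maternal complex genes lie on both sides of 0 and zona genes lie below it. Above 1 lie 9 of 10 trophectoderm genes, beside 35.1% of all genes above the filter.

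Markers of the cell lineages were compared with the stage labels. Of 10 trophectoderm genes, 9 were at least 2-fold higher at E3.5, beside 35.1% of all genes above the filter and 37.3% with no minimum level. Of the 10, 1 was below 1 CPM at E2.5 and was kept by its E3.5 value. Among the 9 were the keratins Krt8, with 27.6 and 1136 CPM, and Krt18, with 56.6 and 1296. The endocytic adaptor Dab2, with 68.4 and 455, was another. Tfap2c was lower, with 224 and 68.1. Of 9 genes of the pluripotency list, 4 were at least 2-fold higher, 1 was lower and 4 lay between, a split not far from the 35.1% and 18.9% of all genes above the filter. Among its most abundant genes at E2.5, Pou5f1 had 383 and 130, Tdgf1 141 and 157, Tfcp2l1 107 and 619, and Esrrb 57.1 and 38.9 CPM. Nanog, with 23.4 and 153 CPM, and Sox2, with 0.579 and 6.09, were higher in the blastocyst pool. Of 8 primitive endoderm genes, 5 were at least 2-fold higher, 1 was lower and 2 lay between. With no minimum level, 37.3% of all genes were at least 2-fold higher and 24% lower. Gata6 had 152 and 135 CPM, Gata4 53.8 and 9.32, Fgfr2 51.5 and 135, Pdgfra 4 and 58, and Col4a1 1.65 and 38.7. Pou5f1, Tfap2c and Gata4 were thus lower in the blastocyst pool, unlike most genes of their lists that passed 2-fold. Of 10 household genes, 2 were at least 2-fold lower, 2 at least 2-fold higher and 6 between. Of all genes above the filter, 18.9% were lower and 35.1% higher. Eef1a1 had 5611 and 8840 CPM, Rplp0 4970 and 2939, Ppia 3650 and 7247, and Hprt 2850 and 1322. More cells, more RNA per cell and a larger share of outer cells cannot be told apart in RNA of whole embryos.

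Cumulus and granulosa cells surround the ovulated egg and can stay attached to it. Of 15 of their markers, 13 were listed, and 3 of them had at least 1 CPM at either stage. With no minimum level, 4 of the 13 were at least 2-fold lower, 4 at least 2-fold higher and 5 between. Of all genes with no minimum level, 24% were lower and 37.3% higher, so these counts are no result about the markers. Their summed share was 46.1 CPM at E2.5 and 11.4 at E3.5, and without Amhr2 it was 3.78 and 6.1 CPM. Amhr2, the receptor of anti-Mullerian hormone and the most abundant of them, had 42.3 and 5.27 CPM. The next were Inhbb with 1.66 and 0.774, Star with 1.14 and 4.7, and Kitl with 0.594 and 0.0453. Fshr and Foxl2, which define granulosa cells, had no row in the E2.5 table and had 0.00114 and 0.0149 CPM at E3.5. Amhr2 and Star apart, each listed marker was below 2 CPM in both pools. The part of follicle RNA in the results was not tested.

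The methylation site of METTL16 in Mat2a is the nonamer TACAGAGAA, written as DNA. None of the 10 transcripts held it, and 3.63% of 20606 RefSeq transcripts did. All 66 introns of the 10 genes began with GT and ended with AG in the GRCm38 sequence at the listed positions, so the coordinates of the tables fit that genome. The polyadenylation hexamer AATAAA was in the last 60 bases of 8 of the 10 transcripts and of 58.8% of all, and was not found there in Ooep and Nlrp4f. The cytoplasmic polyadenylation element TTTTAT, which in oocytes controls tail length, was in the 100 bases before the hexamer, or before the end, in 2 of the 10, Gdf9 and Nlrp4f, and in 12.8% of all. Both sites are shown, with the element in capitals, since Gdf9 was lower and Nlrp4f higher at E3.5. They lie at chr11:53437854-53437883 (plus strand) and chr13:65177128-65177157 (minus strand).
Gdf9: agagtgctgtggTTTTATgtgacggaagaa
Nlrp4f: tgctgttttgtgTTTTATattaaagaatag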

How the data were processed

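Per the labels and the study's methods, the authors aligned reads of single-embryo Smart-seq2 libraries to RefSeq transcripts (mm10) with Salmon 0.7.2, summed them to genes and normalized them with DESeq2 1.18.1. STAR and featureCounts gave the values of single exons and introns. The signal used here, as deposited, is the mean normalized count of a gene, exon or intron over all embryos of a stage. Columns with log2 fold changes and adjusted p-values between WT, HET and KO are the authors' own comparisons and were not used, nor were 4 columns of in vitro libraries. The tables hold pooled means and no reads per gene and embryo, so no interval or limit for low values was given.

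Gene values were divided by the sum of their table and scaled to 1000000 counts (CPM). Exon and intron values were divided by the summed exon values of the longest transcripts at the stage. Genes were counted as lower or higher from 2-fold, among those with at least 1 CPM at either stage. All listed genes were counted for the lists of oocyte genes, of cumulus and granulosa cells and of primitive endoderm. A gene listed at 1 stage only was set to 0 at the other. The longest NM transcript gave exon order and length. Ratios were tested on simulated data, without low genes and after the median ratio of unchanged genes was subtracted. The scaling by shares itself was therefore not tested. The genes named were the 10 members, the 4 genes of each list with the highest share at E2.5, and the 10 largest falls among genes with at least 100 CPM at E2.5. Outside this rule, and after their values were seen, Fshr and Foxl2 were named as defining markers, Nlrp5-ps as a pseudogene, Nlrp2 as the complex gene outside the 10, Nanog, Sox2, Pdgfra and Col4a1 as lineage markers, Gapdh and Pgk1 for their part in a scaling, and neighbours or relatives of the members. Members and lists were chosen with earlier results of these data known. Alternatives were other scalings, exon sums, an added pseudocount, a 4-fold limit and other choices of introns. Python 3.11.15, numpy 2.4.6, pandas 2.3.3, pyranges 0.1.4 and pyfaidx 0.9.0.4 were used, with RefSeq sequences of GRCm38.p6.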

Additional observations from a re-analysis of the deposited data

How the results depend on the processing

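The direction of each of the 10 transcripts was the same in the 4 settings run for single transcripts. These were the main values, scaling by the median of the gene ratios, scaling by 10 household genes, and exon sums. The median log2 difference of the 10, -2.83, was -3.15 when the stages were scaled by the median of the gene ratios, which moves all genes by 0.32, and -3.44 when scaled by 10 household genes, which moves them by 0.61. Gapdh (log2 difference 4.35) and Pgk1 (2.61) carried that shift, and without them, chosen after seeing the data, it was -0.11 and the median of the 10 transcripts was -2.72. It was -2.56 from exon sums, -1.62 with 1 CPM added and, chosen after seeing the data, -3.03 without Nlrp5 and Nlrp4f. The number at least 2-fold lower, 6, was 7 with the median of the gene ratios and with 10 household genes, Tle6 being the addition, and 6 without Gapdh and Pgk1, from exon sums and at 4-fold. The median intron density, 0.712% at E2.5 and 1.23% at E3.5, was 0.526% and 1.14% for introns of at least 200 bases, 0.681% and 0.876% as a median over introns, and 0.552% and 1.05%, chosen after seeing the data, for introns without a listed exon. The cause of these shifts was not tested. No paired analysis was possible because the tables give no value per embryo and the numbers that libraries share belong to the in vitro experiment. Bmp15, Nlrp5 and Gdf9 were below 1 CPM at E3.5, where a pooled mean is least certain.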

Other observations

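Other genes had larger differences downwards from a higher level. Of 1674 genes with at least 100 CPM at E2.5, the 10 with the largest difference downwards were Tmem56, Obox6, Rimklb, Rusc1, Klf17, Trim43c, Tmem229b, Slc19a3, Tfrc and Hand1. Tmem56 had 206 CPM at E2.5 and 1.44 at E3.5, a 143-fold lower share. Obox6, an oocyte-specific homeobox family gene, had 1229 and 17.3 CPM, Klf17, a Kruppel-like transcription factor, 234 and 4.64, Trim43c 441 and 9.55, and Tfrc, the transferrin receptor, 590 and 15.3. Rimklb, Rusc1, Tmem229b, the thiamine transporter gene Slc19a3 and the transcription factor gene Hand1 went from between 104 and 233 CPM to between 1.63 and 5.5.

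Genes beside and related to the transcripts described here, chosen after their values were seen, gave further values. Dppa5a, which encodes a KH domain protein and lies 8704 bases from Ooep on the same strand, had 1782 CPM at E2.5 and 7257 at E3.5, a 4.07-fold higher share. In the same stretch Omt2a and Omt2b, 62855 and 47283 bases from Ooep, went from 6.98 to 0.211 and from 14.5 to 0.0807 CPM. Genes within 100 kb of Ooep thus had differences in both directions. The oogenesin gene Oog1 went from 5.25 to 0.134 CPM, and Oog3 from 6.33 to 0.0425. Of the Trim43 genes, Trim43a had 2261 and 673 and Trim43b 2182 and 89.1 CPM.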
